A study of Mus musculus with 36 samples.

Results

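Messenger RNA carried by several ribosomes was compared between female mouse cortices with a conditional Ddx3x-T532M allele and their Cre-carrying controls at E14.5, the middle of cortical neurogenesis. The comparison rests on 6 of the 36 libraries of the study, chosen by their labels: the 3 polysome libraries of T532M conditional heterozygotes (cHet) and the 3 polysome libraries of T532M controls. The study measured 3 fractions (input, monosome and polysome) in 2 crosses, T532M and LoF, with 3 libraries in each of 12 groups. The cHet embryos carried Emx1-Cre on 1 chromosome and the Ddx3x-T532M lox allele beside a wild-type Ddx3x allele (Emx1-Cre/+;Ddx3x-T532M lox/+). The control embryos carried Emx1-Cre alone (Emx1-Cre/+), so Cre itself was shared by both groups. In the LoF cross, set beside the T532M cross in places below, the cHet were Emx1-Cre/+;Ddx3x lox/+ and the controls Ddx3x lox/+, without Cre. Emx1-Cre recombines in dorsal forebrain progenitors and the cells born from them, while blood vessels, meninges, microglia and ventrally born interneurons lie outside that lineage. The labels do not give what Cre changes in the T532M lox allele. Each library was made from a pool of cortices of 2 embryos, and p-values therefore rest on the spread between pools, part of which may be technical. That spread was estimated over the input, monosome and polysome libraries together, so it is not the spread of the polysome libraries alone. The 3 libraries of a pool were treated as independent.

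Ddx3x is an X-linked gene for a DEAD-box RNA helicase, an enzyme that opens RNA structure with the energy of ATP and helps ribosomes start on messenger RNAs with structured 5′ ends. In the embryonic cortex it acts in the progenitors that give rise to excitatory neurons, and variants of the human gene cause DDX3X syndrome, a neurodevelopmental disorder seen mostly in females. Sucrose gradient centrifugation parts messenger RNAs by ribosome load, and the polysome fraction holds those with several ribosomes. A polysome library gives each transcript as a share of that fraction, so a difference in it can come with a difference in the amount of the transcript in the cell or in its ribosome load, and the input libraries give the first of these.

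The 6 polysome libraries held 44214830 to 57935512 read pairs in genes. The cortical label was checked against markers: Emx1 was at 26.1 to 40.1 CPM in cHet, against 28.4 to 38.4 CPM in control, and Pax6, Eomes and Tbr1, genes of radial glia, intermediate progenitors and deep layer neurons, were at over 100 CPM in every library. CPM are the usual depth-scaled counts, here adjusted by TMM, a method that sets libraries to a common level through their shared genes. Pool cHet 1 stood apart in genes of the choroid plexus and the cortical hem, tissue at the medial edge of the cortex. The summed level of the 19 tested members of that list was 309.7, 90.2 and 55.3 CPM in the cHet pools, against 73.04, 74.8 and 66.5 CPM in the controls. Ttr, which encodes transthyretin and defines choroid plexus cells, gave values of 45.1, 0.494 and 0.0302 CPM in the cHet pools, against 0.0292 and 0.0293 CPM in controls 1 and 3 and 0 CPM in control 2, where a count of 0 allows up to 0.1 CPM. Genes of the meninges and their collagens, the sheath that covers the cortex, were highest in cHet 1 and control 2. Their summed level was 2311, 1625 and 1060 CPM in the cHet pools, against 775, 1965 and 686 CPM in the controls. Results below are therefore also given without pool cHet 1, an alternative added after these values were seen, and without control 2 where that library decides a value.

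Control 2 also stood apart from the other controls over the whole transcriptome. Over the 11729 tested genes with a mean of at least 2 CPM, its median absolute log2 difference was 0.135 from cHet 2 and 0.146 from cHet 3. The same measure was 0.181 from control 1 and 0.208 from control 3, so control 2 lay nearer to both of those cHet pools than to either control.

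Ddx3x itself, the gene the allele targets, was higher in the polysomes of all 3 cHet pools. Its span is chrX:13280970-13294052 on the plus strand of GRCm38 (ENSMUSG00000000787.12), and the codon that the allele name T532M refers to lies at chrX:13290542-13290544 in exon 14 of the 17 exons of transcript ENSMUST00000000804.6. The reference coding sequence around it, from the GENCODE M21 transcripts, is shown because it is the site of the allele under study, with that codon in capitals and 30 bases on either side, joined across an exon boundary.
Ddx3x around the T532M codon, wild-type sequence: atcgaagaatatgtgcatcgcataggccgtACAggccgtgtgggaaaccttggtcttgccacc
The counts cover the whole gene and do not separate the wild-type allele from the T532M allele.

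In the polysome Ddx3x was at 4117, 5860 and 5261 CPM in the cHet pools, against 3047, 3466 and 2268 CPM in the controls. Every cHet pool lay above every control, with group means of 5079 ± 886 CPM and 2927 ± 608 CPM (SD, n = 3 pools each). The log2 fold change of cHet over control was 0.80 (SE 0.271, unadjusted p = 0.009001, adjusted p = 0.5105, edgeR), which did not pass the threshold of 0.05 on the adjusted p over 18243 genes. Leaving out each library or changing the scaling, filter or tool moved the value between 0.63 and 0.93, and it passed in none of 17 alternatives. Without pool cHet 1 in any fraction the Ddx3x value was 0.92 (adjusted p = 0.84, edgeR).

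The level in the other fractions gives the context of that difference. In input, the lysate before the gradient, Ddx3x was at 236, 198 and 166 CPM in the cHet pools, against 50.1, 145 and 111 CPM in the controls. The groups were again apart (log2 fold change 0.97, SE 0.273, adjusted p = 0.264, edgeR). In the monosome it was at 275, 284 and 345 CPM in the cHet pools, against 292, 293 and 346 CPM in the controls, and there the groups overlapped (log2 fold change -0.04). The test of polysome over input gave -0.18 (SE 0.382, unadjusted p = 0.648, adjusted p = 0.987, edgeR), and its sign turned with the library left out. It was 0.15 without control input 1, -0.53 without control input 2 and 0.08 without pool cHet 1. The same test over the monosome gave 0.84 (SE 0.382, unadjusted p = 0.042, adjusted p = 0.699, edgeR).

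**Figure D1:**
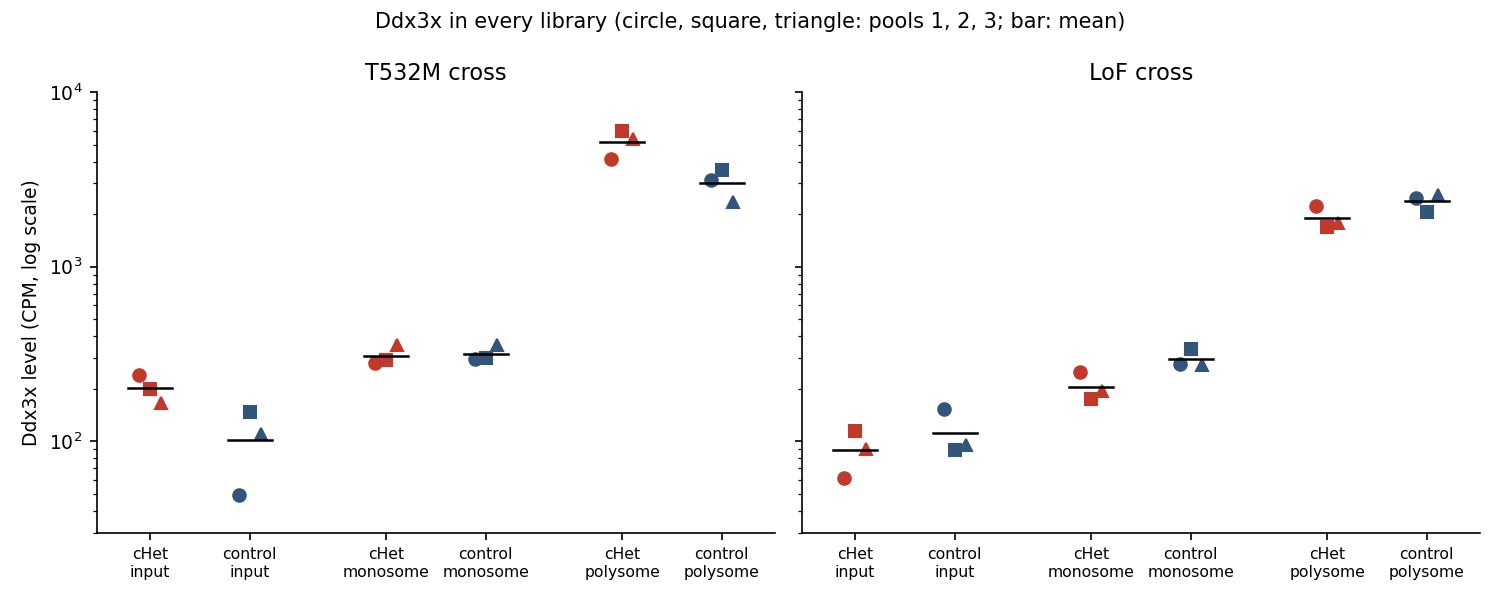
Ddx3x level in CPM on a log axis in every library of the T532M cross (left) and the LoF cross (right), by genotype and fraction, scaled together over all 36 libraries, so that values differ slightly from those of the 18-library fit in the text. Symbols mark pools 1 to 3 and bars the group means; in the T532M polysome the cHet pools sit at 4158, 6005 and 5406 CPM, all above the controls at 3124, 3566 and 2344 CPM.

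The genes beside Ddx3x on the X chromosome did not share its pattern. Usp9x, a deubiquitinase gene 107641 bp upstream and the nearest tested gene of at least 2 CPM on that side, was at 1167, 1839 and 1227 CPM in the cHet pools, against 1602, 1475 and 984 CPM in the controls. Its groups overlapped (log2 fold change 0.06). Cask, a gene for a synaptic scaffold kinase 223027 bp downstream, was at 313, 334 and 362 CPM in the cHet pools, against 514, 373 and 426 CPM in the controls. All cHet pools were below all controls for Cask (log2 fold change -0.38, SE 0.161, adjusted p = 0.592, edgeR). Xist, which coats the inactive X chromosome, stood at 34.2, 62.3 and 53.98 CPM in the cHet pools, against 39.9, 56.2 and 51.5 CPM in the controls, with overlapping groups. The median log2 fold change was -0.03 over 428 X-linked genes and -0.03 over 11286 autosomal genes of at least 2 CPM.

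No single gene passed the test in the polysome. Of 18243 genes tested, 0 passed an adjusted p under 0.05 (0% called), and the lowest adjusted p was 0.0948 (edgeR). At an unadjusted p under 0.05 there were 1444 genes (7.92%), of which 581 were higher (3.18%) and 863 lower (4.73%) in cHet. With upper quartile scaling that split was 730 higher and 687 lower, so the larger number of lower genes depends on the scaling. DESeq2 called 3 genes (0.00953% of those it tested), Ctsa, Ak4 and Ucp2, all higher, and edgeR without the filter on low counts called 58. Without pool cHet 1 in any fraction 0 genes passed.

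Most differences were small. The median log2 fold change of all tested genes was -0.02, or 0.01 with upper quartile scaling, and the middle 90% lay between -0.80 and 0.82. Among genes of at least 2 CPM the median SE of a log2 fold change was 0.146, and 36 genes lay past 2-fold. Of these 36, 29 were higher in cHet, and 27 of the 29 had their highest value in pool cHet 1. They include the choroid plexus and hem genes Ttr, Clic6, Wnt8b and Rspo2, and 2 of the 29, Ttr and Mcoln3, had all cHet pools above all controls, Ttr with a cHet 3 level of 0.0302 CPM that lies under the 0.0907 CPM a count of 0 allows there. Of the 7 lower genes, 3 had groups that did not overlap (Necab1, Itprid1 and 2600014E21Rik). All cHet pools lay above all controls for 697 genes (3.82%) and below them for 1059 (5.8%).

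**Figure D2:**
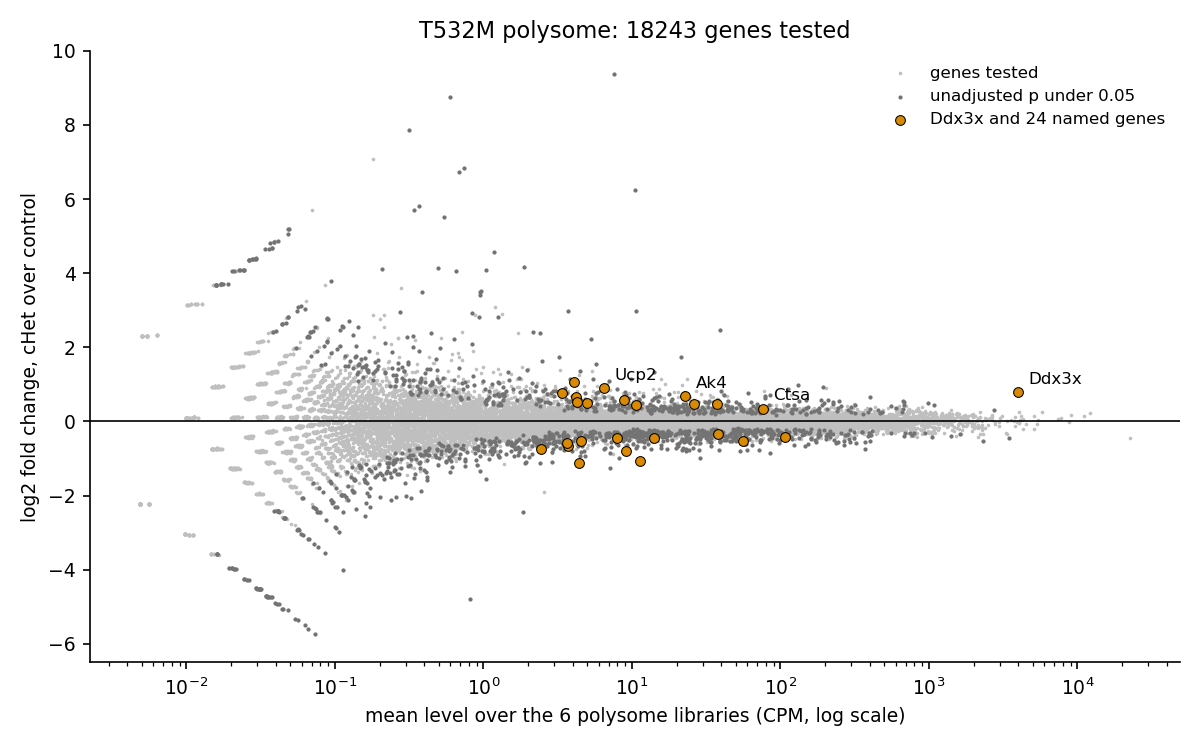
Log2 fold change of cHet over control in the T532M polysome against the mean CPM of the 6 libraries (log axis) for all genes tested; dark grey points have an unadjusted p under 0.05 and orange points are Ddx3x and the 24 genes of smallest p named in the text. None passed the adjusted threshold, and the scatter widens toward low levels, where single reads move the ratio.

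Of the genes higher in cHet polysomes, Ucp2 and Ak4 had the smallest p. Ucp2, a carrier of the inner mitochondrial membrane in the uncoupling protein family (chr7:100493337-100502020), was at 7.97, 7.22 and 10.3 CPM in the cHet pools, against 4.74, 4.51 and 4.39 CPM in the controls. The groups were well apart, and the controls lay close together. Its log2 fold change was 0.91 (SE 0.141, unadjusted p = 5.19e-06, adjusted p = 0.0948, edgeR), and it passed the threshold in 6 of 17 alternatives, with adjusted p between 4.80e-05 and 0.758. Ak4, an adenylate kinase of the mitochondrial matrix (chr4:101419277-101466995), was at 25.5, 29.02 and 29.97 CPM in the cHet pools, against 15.8, 20.7 and 16.03 CPM in the controls. It too had groups that did not overlap (log2 fold change 0.69, SE 0.122, adjusted p = 0.158, edgeR) and passed in 3 of 17 alternatives, with adjusted p between 0.00249 and 0.758.

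Ucp2 and Ak4 were also higher in the lysate. Ucp2 in input was at 42.99, 37.1 and 45.7 CPM in the cHet pools, against 29.5, 26.4 and 30.3 CPM in the controls, a log2 fold change of 0.55. Ak4 in input was at 26.4, 27.4 and 30.4 CPM in the cHet pools, against 16.3, 19.4 and 18.1 CPM in the controls, a log2 fold change of 0.65. The change of polysome over input was 0.36 for Ucp2 (SE 0.189) and 0.04 for Ak4 (SE 0.171), neither past the threshold. In the LoF polysome the log2 fold changes were -0.18 for Ucp2 and -0.05 for Ak4.

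Ctsa, cathepsin A, a lysosomal protease that protects other lysosomal enzymes (chr2:164832873-164841032), was at 88.2, 82.7 and 84.2 CPM in the cHet pools, against 62.5, 67.8 and 70.2 CPM in the controls. The groups did not overlap, and the pools within each lay close together (log2 fold change 0.35, SE 0.0852, adjusted p = 0.5005, edgeR). In input Ctsa was at 32.1, 33.2 and 35.2 CPM in the cHet pools, against 39.1, 35.6 and 38.03 CPM in the controls, a log2 fold change of -0.17, so its sign was the opposite there. Its change of polysome over input was 0.51 (SE 0.121, unadjusted p = 0.000495, adjusted p = 0.793, edgeR). In the authors' deposited table, whose polysome column compares polysome with input, Ctsa was the only gene with an adjusted p under 0.05, at a log2 fold change of 0.56 and an adjusted p of 0.01509. Mcoln3, a cation channel of endosomes and lysosomes, was at 4.34, 6.43 and 5.75 CPM in the cHet pools, against 1.84, 3.31 and 2.73 CPM in the controls, without overlap and with a log2 fold change of 1.07 (SE 0.278).

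Among the other genes higher in cHet, Rfx2, a regulator of cilium genes, was at 11.3, 11.4 and 9.07 CPM in the cHet pools, against 6.25, 6.99 and 7.91 CPM in the controls (log2 fold change 0.59). Rxra, the retinoid X receptor that pairs with many nuclear receptors, was at 28.01, 31.9 and 31.6 CPM in the cHet pools, against 21.6, 24.4 and 19.7 CPM in the controls (log2 fold change 0.48, with 0.61 in input). Jund, a member of the AP-1 family, was at 44.3, 40.4 and 45.3 CPM in the cHet pools, against 33.6, 27.1 and 32.6 CPM in the controls (log2 fold change 0.48). Every cHet pool lay above every control for each of the 3. Metrn, which encodes the secreted neurotrophic factor meteorin of glial progenitors, was at 4.01, 4.37 and 4.54 CPM in the cHet pools, against 2.63, 2.07 and 2.84 CPM in the controls (log2 fold change 0.77), also without overlap. The other 4 were Necab2, a neuronal calcium-binding protein (0.49), Tmem121 (0.65), Plp2, a proteolipid of the endoplasmic reticulum (0.51), and BC017158 (0.44). For these 12 genes other than Ucp2 and Ak4 the adjusted p was 0.5005 (edgeR).

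Of the genes lower in cHet polysomes, Hs3st4, a heparan sulfate sulfotransferase that marks deep layer neurons, was at 7.03, 6.35 and 8.65 CPM in the cHet pools, against 17.6, 8.29 and 20.2 CPM in the controls. Control 2 lay within the cHet range, so these groups overlapped (log2 fold change -1.06, SE 0.279, with -0.90 in input). Lrrtm4, a leucine-rich repeat protein of excitatory synapses, was at 6.09, 6.01 and 7.95 CPM in the cHet pools, against 11.3, 9.03 and 14.6 CPM in the controls, with no overlap (log2 fold change -0.80, SE 0.211). Nxph4, of the neurexophilin family that binds neurexins, was at 11.1, 11.9 and 13.1 CPM in the cHet pools, against 15.9, 14.98 and 17.8 CPM in the controls, again without overlap (log2 fold change -0.43). Nr4a3, an orphan nuclear receptor induced by activity, was at 44.5, 45.8 and 47.02 CPM in the cHet pools, against 80.5, 53.8 and 64.2 CPM in the controls, with the cHet pools close together and below all controls (log2 fold change -0.53). In input Nr4a3 differed by -0.01 on the log2 scale.

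Among the rest, Ralgps1, an exchange factor for the small GTPase Ral, was at 82.2, 91.8 and 100.2 CPM in the cHet pools, against 132, 106 and 129.9 CPM in the controls (log2 fold change -0.42). Coro2a, an actin-binding coronin, was at 2.62, 2.89 and 3.21 CPM in the cHet pools, against 4.79, 4.21 and 4.75 CPM in the controls (log2 fold change -0.66). Both had all cHet pools below all controls. Asrgl1, an asparaginase, was at 32.6, 33.2 and 34.9 CPM in the cHet pools, against 42.8, 42.04 and 41.5 CPM in the controls, with a log2 fold change of -0.33 (SE 0.0848) beside -0.36 in input. Particl, a long non-coding RNA, was at 1.81, 1.75 and 1.88 CPM in the cHet pools, against 2.86, 2.81 and 3.52 CPM in the controls, also without overlap (log2 fold change -0.76). The other 4 were Itprid1 (-1.12), Pigp of GPI anchor synthesis (-0.54), Mypop, a Myb-related factor (-0.58), and Ercc8 of transcription-coupled repair (-0.43). All 12 had an adjusted p of 0.5005 (edgeR), and none of the 24 genes changed sign in any alternative. As the 24 were picked by p from these same libraries, their stable sign and separate groups are no independent support. Without pool cHet 1 the log2 fold change was 0.95 for Ucp2, 0.75 for Ak4, 0.32 for Ctsa, -1.03 for Hs3st4 and -0.74 for Lrrtm4.

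**Figure D3:**
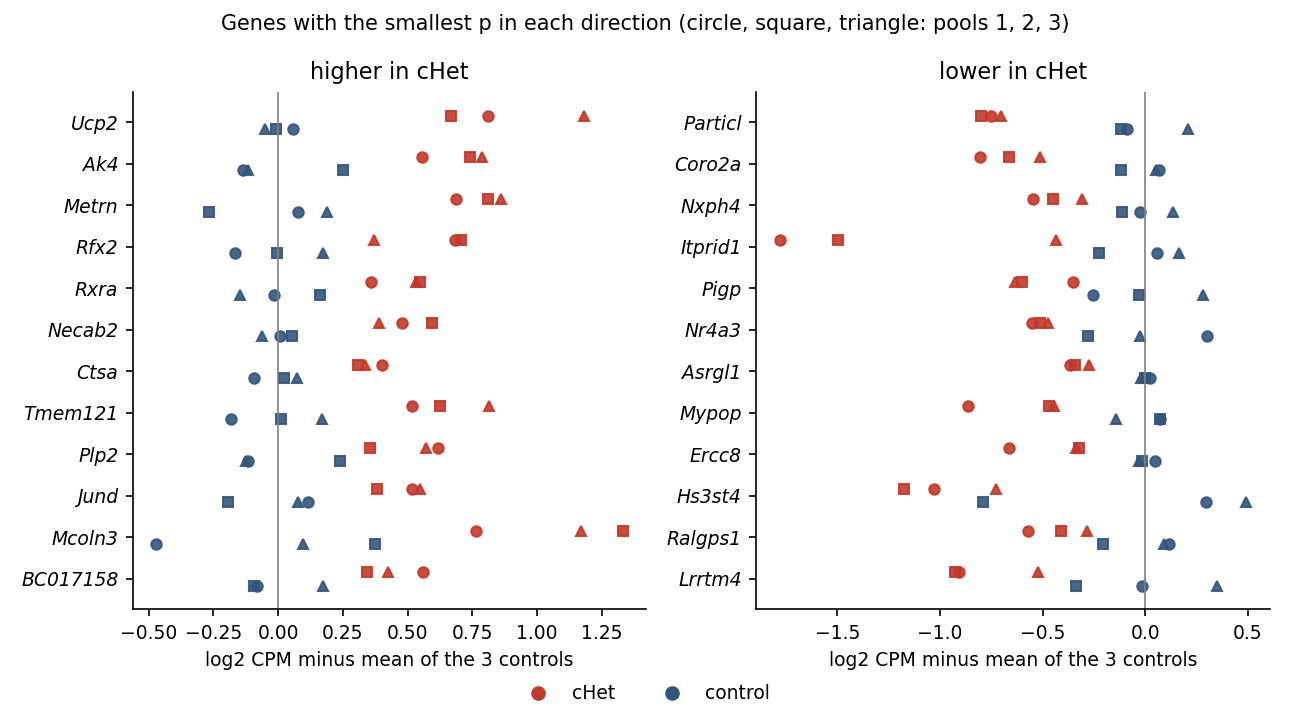
Log2 CPM of each polysome library minus the mean of the 3 controls, for the 12 genes of smallest p that were higher in cHet (left) and the 12 that were lower (right); red marks cHet, blue control, and symbols mark pools 1 to 3. In all but Hs3st4 the cHet and control pools do not overlap, and control 2 (blue squares) lies nearest to the cHet pools in Hs3st4, Nr4a3, Lrrtm4 and Ralgps1.

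Gene lists gave the pattern by cell type. They are described by counts by sign and by the median log2 fold change, beside the same over all genes tested, of which 8335 (45.7%) were higher and 9872 (54.1%) lower in cHet, with a median of -0.02. In pools of tissue, fewer cells of a type and less RNA per cell cannot be told apart. No member of any list passed the test. A range after a median gives its lowest and highest value when 1 of the 6 polysome libraries was left out, with that library named. Where a list's input, monosome or LoF value is given, the share of all genes higher by sign was 49.7% in T532M input, 42.8% in T532M monosome and 51.4% in LoF polysome. In those comparisons 1 gene passed in input (0.00548%, with 10.7% at an unadjusted p under 0.05), 188 in the monosome (1.03%, with 11.8% unadjusted) and 0 in the LoF polysome (0% called, with 599 genes, 3.13%, unadjusted).

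Messenger RNAs of dividing progenitors were mostly higher in cHet polysomes by sign, less so without control 3. In the list of cell cycle and DNA replication 38 of 40 genes were higher, with a median of 0.18 beside 0.05 in input. Its level relative to the control mean was 0.02, 0.33 and 0.23 in the cHet pools, against -0.10, 0.31 and -0.22 in the controls, so control 2 stood with the cHet pools and the groups overlapped. Cdc45, of the replicative helicase, was at 64.6, 82.5 and 76.4 CPM in the cHet pools, against 47.9, 68.4 and 50.2 CPM in the controls (log2 fold change 0.42, the member of smallest p), and Top2a, topoisomerase II, was at 2229 to 3966 CPM in cHet, against 1314 to 3622 CPM in control. Without pool cHet 1 the median was 0.27, without control 2 it was 0.38, and without control 3 it was 0.03, with 22 of 40 higher.

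In radial glia, the stem cells of the cortex, 16 of 23 members were higher (median 0.08, between 0.03 without control 3 and 0.14 without control 2). Vim, the intermediate filament vimentin, was at 2985, 3331 and 2848 CPM in the cHet pools, against 2556, 2776 and 2066 CPM in the controls, with all cHet pools above all controls (log2 fold change 0.31, adjusted p = 0.592, edgeR). Sox9, a factor of neural stem cells, was at 395, 490.0 and 458 CPM in the cHet pools, against 339.7, 406 and 323 CPM in the controls (log2 fold change 0.33). For Sox9, singled out after its values were seen, cHet 1 lay below control 2, so the groups overlapped. Of the list of intermediate progenitors and neurogenic factors 16 of 19 were lower (median -0.12, between -0.24 without cHet 3 and -0.07 without cHet 1). Eomes, the factor that defines these progenitors, was at 727, 908 and 1103 CPM in the cHet pools, against 1005, 1041 and 922 CPM in the controls, with overlapping groups (log2 fold change -0.12). Dll3, a Notch ligand of newborn neurons, was the member of smallest p, and it was higher, at 36.6, 38.3 and 39.5 CPM in the cHet pools, against 30.5, 34.2 and 28.7 CPM in the controls (log2 fold change 0.29, with -0.31 in input).

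Messenger RNAs of excitatory neurons were mostly lower in cHet polysomes. Of the deep layer list 15 of 16 members were lower, with a median of -0.28, against 0.00 in input and -0.25 in the monosome. At an unadjusted p under 0.05, 6 of the 16 were lower, beside 4.73% of all genes. All cHet pools lay below all controls for 3 members, beside 5.8% of all genes. Per library the list stood at -0.43, -0.30 and -0.25 in the cHet pools, against 0.24, -0.20 and -0.01 in the controls. Every cHet pool was below every control, control 2 again nearest to them. Tbr1, a transcription factor of layer 6, was at 1002, 1363 and 1576 CPM in the cHet pools, against 2130, 1467 and 1612 CPM in the controls (log2 fold change -0.40), with control 2 between the cHet pools. Nfib, a factor of deep layer neurons and glia, was at 2486, 2922 and 3532 CPM in the cHet pools, against 4207, 3464 and 3692 CPM in the controls (log2 fold change -0.35), with control 2 just below cHet 3.

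A further 3 members of the deep layer list, picked after their values were seen, show the groups without overlap. Bcl11b (Ctip2), a factor of subcerebral projection neurons, was at 824, 865 and 1010 CPM in the cHet pools, against 1389, 1018 and 1195 CPM in the controls (log2 fold change -0.42, adjusted p = 0.5105, edgeR). Tle4, a corepressor of layer 6 neurons, was at 136, 143 and 137 CPM in the cHet pools, against 189.8, 147 and 184 CPM in the controls (log2 fold change -0.32). Sox5, which times the production of deep layer neurons, was at 1030, 1380 and 1276 CPM in the cHet pools, against 1984, 1396 and 1440 CPM in the controls (log2 fold change -0.39). In each of the 3, control 2 was close to the highest cHet pool and control 1 was highest of all.

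In the list of upper layer and migrating excitatory neurons 14 of 17 were lower, with a median of -0.31, against -0.03 in input and -0.24 in the monosome. At an unadjusted p under 0.05, 8 of the 17 were lower, beside 4.73% of all genes, but 0 had groups that did not overlap. Per library the list stood at -0.38, -0.45 and -0.09 in the cHet pools, against 0.20, -0.24 and 0.08 in the controls. Pool cHet 3 lay above control 2, so the groups overlapped. Neurod6, a factor of postmitotic excitatory neurons, was at 179.5, 201 and 329.7 CPM in the cHet pools, against 376, 302 and 368 CPM in the controls (log2 fold change -0.56, the member of smallest p). Without pool cHet 1 the medians were -0.24 for the deep layer list and -0.32 for the upper layer list. Without control 2 they were -0.37 and -0.43, and without control 1, the highest library in both lists, they shrank to -0.22 and -0.21. In the LoF polysome they were -0.05 for deep layers and 0.02 for upper layers.

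Genes that neurons use for wiring followed the neuronal lists in sign. Of the synaptic adhesion list 31 of 40 were lower (median -0.17, against 0.07 in input). At an unadjusted p under 0.05, 7 of the 40 were lower, beside 4.73% of all genes. Ncam1, the neural cell adhesion molecule, was at 1760, 2056 and 1540 CPM in the cHet pools, against 2722, 1875 and 1753 CPM in the controls (log2 fold change -0.25), with overlap. Of the list of neuronal microtubules and growth 26 of 32 were lower (median -0.19, between -0.29 without control 2 and -0.05 without control 1, -0.17 in input). Dpysl3, a growth cone protein, was at 4613 to 4912 CPM in cHet, against 4732 to 6640 CPM in control, while Tuba1b, an alpha tubulin also used by dividing cells and the member of smallest p, was higher, at 250.5, 291 and 288 CPM in the cHet pools, against 188, 241 and 219.6 CPM in the controls (log2 fold change 0.36). Per library the synaptic list stood at -0.11, -0.08 and -0.19 in the cHet pools, against 0.23, -0.17 and -0.06 in the controls, and control 1 alone lay well above the rest. Without control 1 its median was -0.04, and without cHet 1 in all fractions it was -0.18.

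In the list of axon guidance ligands and receptors 27 of 43 were lower (median -0.08, 0.07 in input), and the median was 0.02 without control 1. Slit2, a repellent ligand for Robo receptors, was the member of smallest p and was higher, at 276, 329 and 163 CPM in the cHet pools, against 146, 182 and 73.4 CPM in the controls (log2 fold change 0.94, with 0.89 in input). Its level in cHet 3 lay below control 2. Cntn2, an axonal contactin, was at 3758, 4345 and 3941 CPM in the cHet pools, against 6193, 3738 and 3996 CPM in the controls, with overlapping groups (log2 fold change -0.21).

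**Figure D4:**
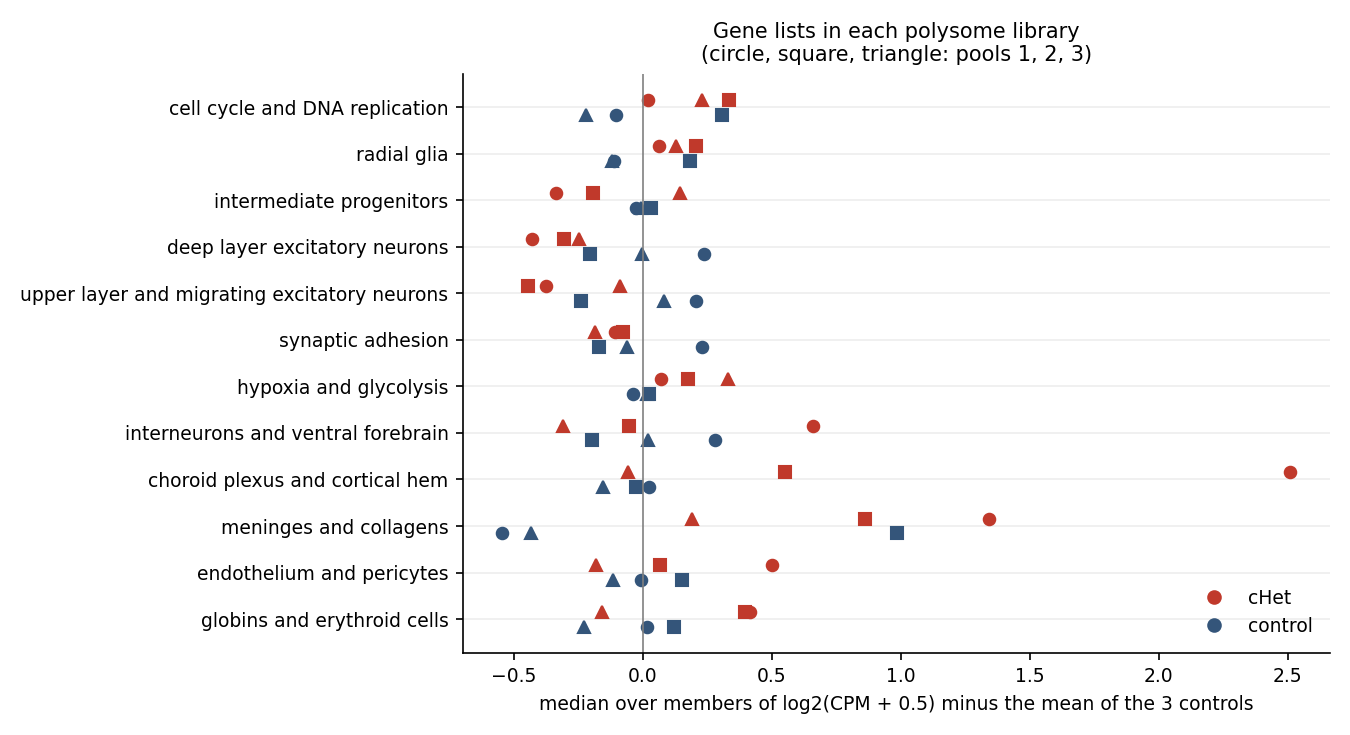
Median over the members of 12 gene lists of log2(CPM + 0.5) in each polysome library, minus the mean of the 3 controls; red marks cHet, blue control, and symbols mark pools 1 to 3. The deep layer list is lower in every cHet pool than in any control, control 2 (blue squares) lies with the cHet pools in the cell cycle and meninges lists, and cHet 1 (red circle) stands alone in choroid plexus and cortical hem.

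Markers of cells at the border of the cortex moved with cHet 1, and their part in the results above was not tested. Of the choroid plexus and cortical hem list 18 of 19 were higher (median 1.64, with 1.47 in input), and without pool cHet 1 the median was 0.40 with 11 higher. Clic6, a chloride channel protein of the choroid plexus and the member of smallest p, was at 60.4, 1.56 and 0.242 CPM in the cHet pools, against 0.614, 0.134 and 0.0586 CPM in the controls. Enpp2, autotaxin, was at 80.8, 32.7 and 21.96 CPM in the cHet pools, against 29.2, 34.7 and 25.5 CPM in the controls. Both were far higher in cHet 1 than in any other pool. Of the meninges list 19 of 22 were higher (median 0.69), and the median was 0.12 without pool cHet 1 and 1.75 without control 2. Col1a1, a fibrillar collagen of the meninges, was at 170.3, 77.96 and 49.8 CPM in the cHet pools, against 12.3, 139 and 19.01 CPM in the controls, with control 2 above cHet 2 and cHet 3.

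Other cells outside the Emx1 lineage varied from pool to pool. The interneuron and ventral forebrain list had 20 of 31 higher, with a median of 0.13 that was -0.27 without pool cHet 1, and -0.04 without control 2, so its sign turns with either library. Its summed level was 1515, 1041 and 800.3 CPM in the cHet pools, against 1242, 921 and 931 CPM in the controls. Gad2, which makes the transmitter GABA, was at 159, 102 and 60.8 CPM in the cHet pools, against 122, 84.9 and 87.7 CPM in the controls, and Nkx2-1, a factor of the ventral forebrain, was at 8.26, 2.24 and 0.0907 CPM in the cHet pools, against 0.175, 0.368 and 0.0586 CPM in the controls. Endothelial and pericyte genes had 16 of 20 higher (median 0.14, between -0.06 without cHet 1 and 0.28 without cHet 3, -0.06 without pool cHet 1) and a summed level of 1401, 1118 and 891 CPM in the cHet pools, against 938, 1167 and 803 CPM in the controls. Cldn5, claudin of the blood-brain barrier, was at 4.99 to 12.1 CPM in cHet, against 6.55 to 7.69 CPM in control. Globins and erythroid genes had 13 of 14 higher (median 0.33, between 0.16 without control 3 and 0.59 without cHet 3, 0.26 without pool cHet 1) and a summed level of 462, 521 and 454 CPM in the cHet pools, against 366, 495 and 337 CPM in the controls, with Hbb-bs, an adult beta globin, at 24.9 to 47.3 CPM in cHet, against 23.9 to 31.8 CPM in control. Of the defining markers named here Ttr was the one listed at 0 in a polysome library; how much of any other result these cells carry was not tested.

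Microglial genes had 8 of 16 higher (median 0.03, between -0.11 without cHet 1 and 0.25 without control 2, -0.11 without pool cHet 1) and a summed level of 205, 153 and 136 CPM in the cHet pools, against 177, 198 and 139.7 CPM in the controls. C1qa, a complement gene of microglia, was at 0.989 to 1.78 CPM in cHet, against 0.965 to 1.97 CPM in control. Of 10 genes of Cajal-Retzius cells, the early neurons of layer 1, 6 were higher (median 0.04, between -0.05 without cHet 2 and 0.11 without cHet 3), and Reln, which encodes their secreted glycoprotein reelin, was at 485, 648 and 346 CPM in the cHet pools, against 349.7, 397 and 197 CPM in the controls (log2 fold change 0.65). For Reln cHet 3 lay below 2 of the controls.

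Signalling pathways of the progenitor zone showed small medians. Of the Notch list 17 of 25 were higher (median 0.11, between 0.07 without control 3 and 0.19 without control 2, 0.09 in input), with the receptor Notch1 at 868, 1240 and 753 CPM in the cHet pools, against 785, 954 and 486 CPM in the controls (log2 fold change 0.36) and overlapping groups. Of the Wnt list 23 of 37 were higher (median 0.04, between 0.01 without control 1 and 0.12 without cHet 1, against 0.23 in input). Nkd1, a feedback inhibitor of Wnt signalling, was at 23.8, 22.1 and 24.8 CPM in the cHet pools, against 20.1, 19.7 and 18.96 CPM in the controls, without overlap (log2 fold change 0.27). Axin2, another feedback target, named after its values were seen, was at 58.5, 52.9 and 41.7 CPM in the cHet pools, against 38.8, 39.2 and 36.9 CPM in the controls, likewise without overlap (log2 fold change 0.41, 0.34 for Nkd1 and 0.34 for Axin2 in input). Ctnnb1, beta-catenin, was at 5084 to 6113 CPM in cHet, against 4357 to 5928 CPM in control (log2 fold change 0.04). Wnt8b, a ligand made by the cortical hem and also picked after its values were seen, was at 39.1, 16.7 and 1.36 CPM in the cHet pools, against 4.56, 2.17 and 0.527 CPM in the controls and followed the choroid plexus and hem genes in its excess in cHet 1.

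Glycolysis and hypoxia genes were mostly higher in cHet polysomes by sign. In the list of hypoxia and glycolysis 22 of 27 were higher (median 0.19, 0.01 in input), with 9 of 27 higher at an unadjusted p under 0.05, beside 3.18% of all genes, and 8 with all cHet pools above all controls, beside 3.82%. Per library the list stood at 0.07, 0.18 and 0.33 in the cHet pools, against -0.04, 0.02 and 0.02 in the controls, each cHet pool above each control. P4ha1, a prolyl hydroxylase subunit for collagen and a target of the hypoxia factor HIF1, was at 169.9, 167 and 164 CPM in the cHet pools, against 128, 132 and 129 CPM in the controls (log2 fold change 0.37, SE 0.106, adjusted p = 0.5005, edgeR). Pkm, pyruvate kinase, was at 3856, 4702 and 4664 CPM in the cHet pools, against 3662, 4357 and 3098 CPM in the controls (log2 fold change 0.25), with overlap. Gapdh, a glycolytic dehydrogenase, was at 889.5, 834 and 1038 CPM in the cHet pools, against 768, 850.2 and 821 CPM in the controls (log2 fold change 0.18), also with overlap.

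Glycolytic genes named after their values were seen fill out that list. Ldha, lactate dehydrogenase A, was at 713, 725 and 917 CPM in the cHet pools, against 498, 598 and 633 CPM in the controls (log2 fold change 0.44). Pgk1, phosphoglycerate kinase, was at 208, 212 and 271 CPM in the cHet pools, against 168, 196 and 186 CPM in the controls (log2 fold change 0.33). Both had all cHet pools above all controls. Slc2a1, the glucose transporter of the blood-brain barrier, was at 365, 306 and 298 CPM in the cHet pools, against 267, 296 and 250.3 CPM in the controls (log2 fold change 0.25) and is also on the endothelial list. Eno2, the neuronal enolase, was lower, at 20.7, 15.1 and 27.6 CPM in the cHet pools, against 34.6, 20.9 and 40.3 CPM in the controls (log2 fold change -0.59). Without pool cHet 1 the list's median was 0.20, and over all alternatives it lay between 0.13 and 0.22.

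Nuclear-encoded messenger RNAs of mitochondrial proteins showed small medians in the polysome. Of nuclear genes for oxidative phosphorylation 50 of 73 were lower in the polysome (median -0.07, between -0.12 without cHet 3 and 0.00 without cHet 2), whereas in input 0 of 73 were higher (median -0.22). The polysome split depends on the scaling, as 33 of the 73 were higher with upper quartile scaling (median -0.04). Atp5o, an ATP synthase subunit and the member of smallest p, was higher, at 20.04, 20.4 and 19.8 CPM in the cHet pools, against 15.96, 16.4 and 15.4 CPM in the controls (log2 fold change 0.33). Of mitochondrial ribosomal proteins 46 of 75 were lower (median -0.04, between -0.11 without cHet 3 and -0.01 without cHet 2), but 37 of the 75 were higher with upper quartile scaling (median -0.01). Of 10 mitochondrially encoded messenger RNAs 9 were higher (median 0.23, between 0.05 without cHet 1 and 0.53 without cHet 3, or 0.28 with 2 members that were at 0 in a whole group set at the bound of 3 counts over that group), and mt-Co1 was at 286, 316 and 180.1 CPM in the cHet pools, against 202, 309.6 and 227 CPM in the controls. These RNAs took 0.0289 to 0.0524% of the polysome read pairs, cHet 1 having most.

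Genes of the translation machinery, the setting in which Ddx3x acts, showed medians near that of all genes. Cytosolic ribosomal proteins had 40 of 79 higher (median 0.01), against -0.23 in input, and the polysome median was -0.01 with a replicate block and -0.14 without cHet 3, so its sign is not settled. Rpl4 of the large subunit was at 637, 596 and 765 CPM in the cHet pools, against 688, 759.5 and 720.3 CPM in the controls (log2 fold change -0.12), with cHet 3 above all the other pools. Elongation factors and other TOP messenger RNAs had 12 of 16 higher (median 0.05, between -0.06 without cHet 3 and 0.08 without cHet 2, -0.17 in input). Eef1a1, which brings tRNA to the ribosome, was at 12501, 13089 and 13884 CPM in the cHet pools, against 10658, 12455 and 10399 CPM in the controls (log2 fold change 0.24, against -0.16 in input). Its cHet pools lay just above the controls in the polysome.

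Initiation factors, the partners of the helicase, had 22 of 41 members higher (median 0.01, between -0.07 without cHet 3 and 0.05 without cHet 1). Eif3b, a subunit of the scaffold eIF3, was at 876, 998 and 932 CPM in the cHet pools, against 768, 827 and 704 CPM in the controls (log2 fold change 0.29), without overlap, and Eif4g1, the scaffold of the cap-binding complex, was at 1569, 2326 and 1658 CPM in the cHet pools, against 1913, 2085 and 904 CPM in the controls (log2 fold change 0.18). Other DEAD and DEAH box helicases had 27 of 36 higher (median 0.06, between -0.03 without control 3 and 0.11 without cHet 1, -0.16 in the monosome). Dhx9, a DEAH box helicase, was at 2017, 3842 and 2208 CPM in the cHet pools, against 2979, 3512 and 1429 CPM in the controls (log2 fold change 0.03), and Ddx5 was at 4327 to 5733 CPM in cHet, against 4424 to 6072 CPM in control (log2 fold change -0.08). The excess of Ddx3x was thus larger than that of any other helicase on the list, whose log2 fold changes lay between -0.18 and 0.21.

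Of 15 transcripts listed as reported to depend on DDX3X, 7 were higher and 8 lower (median -0.01, between -0.06 without control 3 and 0.15 without cHet 3, or 0.03 with upper quartile scaling, and 0.20 in input). Etv5, an ETS factor downstream of FGF signalling and the member of smallest p, was lower, at 35.3, 36.4 and 50.7 CPM in the cHet pools, against 56.9, 52.7 and 67.9 CPM in the controls (log2 fold change -0.54, SE 0.195, adjusted p = 0.543, edgeR). The groups did not overlap for Etv5, and in input its log2 fold change was -0.42. Map1b, a microtubule-associated protein of growing axons, was at 7594, 12252 and 6323 CPM in the cHet pools, against 10649, 10181 and 5664 CPM in the controls (log2 fold change -0.02), with overlapping groups.

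Messenger RNAs whose translation is set by upstream reading frames under stress had 9 of 16 members higher (median 0.03, between -0.01 without control 3 and 0.07 without control 1). Ifrd1, a transcriptional co-regulator and the member of smallest p, was lower, at 17.6, 16.5 and 17.2 CPM in the cHet pools, against 20.3, 24.1 and 22.2 CPM in the controls (log2 fold change -0.37, adjusted p = 0.5005, edgeR), and Psat1, of serine synthesis, was at 406 to 447 CPM in cHet, against 311 to 394 CPM in control (log2 fold change 0.26). Aminoacyl-tRNA synthetases had 16 of 21 higher (median 0.09, between -0.04 without control 3 and 0.16 without control 2), with Kars, the lysyl-tRNA synthetase, at 392.4 to 451 CPM in cHet, against 353 to 409.5 CPM in control. Stress granule and FMRP family genes had 11 of 17 higher (median 0.04, between -0.08 without control 3 and 0.10 without control 2), and Cyfip2, a partner of FMRP, was lower, at 577, 642 and 618 CPM in the cHet pools, against 881, 664 and 752 CPM in the controls (log2 fold change -0.32), without overlap. Chaperones of the endoplasmic reticulum had 13 of 23 higher (median 0.03, between -0.01 without control 3 and 0.04 without cHet 1), and P4hb, a disulfide isomerase, was at 722, 676 and 763 CPM in the cHet pools, against 552, 649.5 and 617 CPM in the controls (log2 fold change 0.25), also without overlap.

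Further lists are given by count and median. Polyamine synthesis genes had 6 of 14 higher (median -0.01, between -0.06 without cHet 3 and 0.03 without cHet 1, or 0.02 with upper quartile scaling), cholesterol synthesis genes 14 of 23 (median 0.03, between -0.06 without control 3 and 0.07 without control 2) and immediate early genes 12 of 19 (median 0.15, between 0.08 without cHet 1 and 0.20 without control 1). Chromatin remodellers of the NuRD, CoREST and BAF complexes had 15 of 39 higher (median -0.05, 0.02 without pool cHet 1). Dpf3, a BAF subunit and their member of smallest p, was lower, at 14.4, 16.2 and 19.5 CPM in the cHet pools, against 32.7, 20.9 and 29.1 CPM in the controls (log2 fold change -0.72, -0.61 in input), without overlap. G protein beta subunits and protein kinase A genes had 5 of 19 higher (median -0.16, between -0.24 without cHet 3 and -0.13 without control 1). Sensors of double-stranded RNA and interferon genes had 18 of 22 higher (median 0.38, between 0.21 without cHet 1 and 0.47 without control 2, 0.21 without pool cHet 1), with the adaptor Mavs at 22.7, 29.7 and 24.1 CPM in the cHet pools, against 20.1, 23.1 and 17.3 CPM in the controls (log2 fold change 0.34), with overlap. With a minimum of 2 CPM only 10 members of that list remained, and their median was 0.13. Per library the list stood at 0.27, 0.08 and 0.15 in the cHet pools, against 0.02, 0.11 and -0.17 in the controls, so the groups overlapped. Replication-dependent histones, whose RNAs lack a poly(A) tail, had 23 of 45 higher (median 0.03, between -0.11 without cHet 1 and 0.20 without control 2, or 0.06 with 4 members at 0 in a whole group set at their bound).

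Non-coding RNAs were mostly lower by sign. Of hosts of small nucleolar RNAs 10 of 15 were lower (median -0.16, between -0.25 without cHet 3 and -0.11 without control 1), and Gas5 was at 21.4, 21.6 and 24.7 CPM in the cHet pools, against 23.8, 26.5 and 25.6 CPM in the controls (log2 fold change -0.16), with overlap. At an unadjusted p under 0.05, 2 members were higher and 0 lower, beside 3.18% and 4.73% of all genes. Snhg15, the member of smallest p, was higher at low levels and with overlap. It was at 0.259, 0.609 and 0.423 CPM in the cHet pools, against 0.0292, 0.368 and 0.205 CPM in the controls. Of nuclear long non-coding RNAs 10 of 15 were lower in the polysome (median -0.18, between -0.22 without cHet 2 and -0.09 without cHet 1), while the median in input was 0.25. Malat1, an RNA of nuclear speckles, was at 44.7, 56.1 and 51.3 CPM in the cHet pools, against 61.9, 69.1 and 65.2 CPM in the controls (log2 fold change -0.37, SE 0.448, adjusted p = 0.859, edgeR), every cHet pool below every control. In input its log2 fold change was 1.05.

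**Figure D5:**
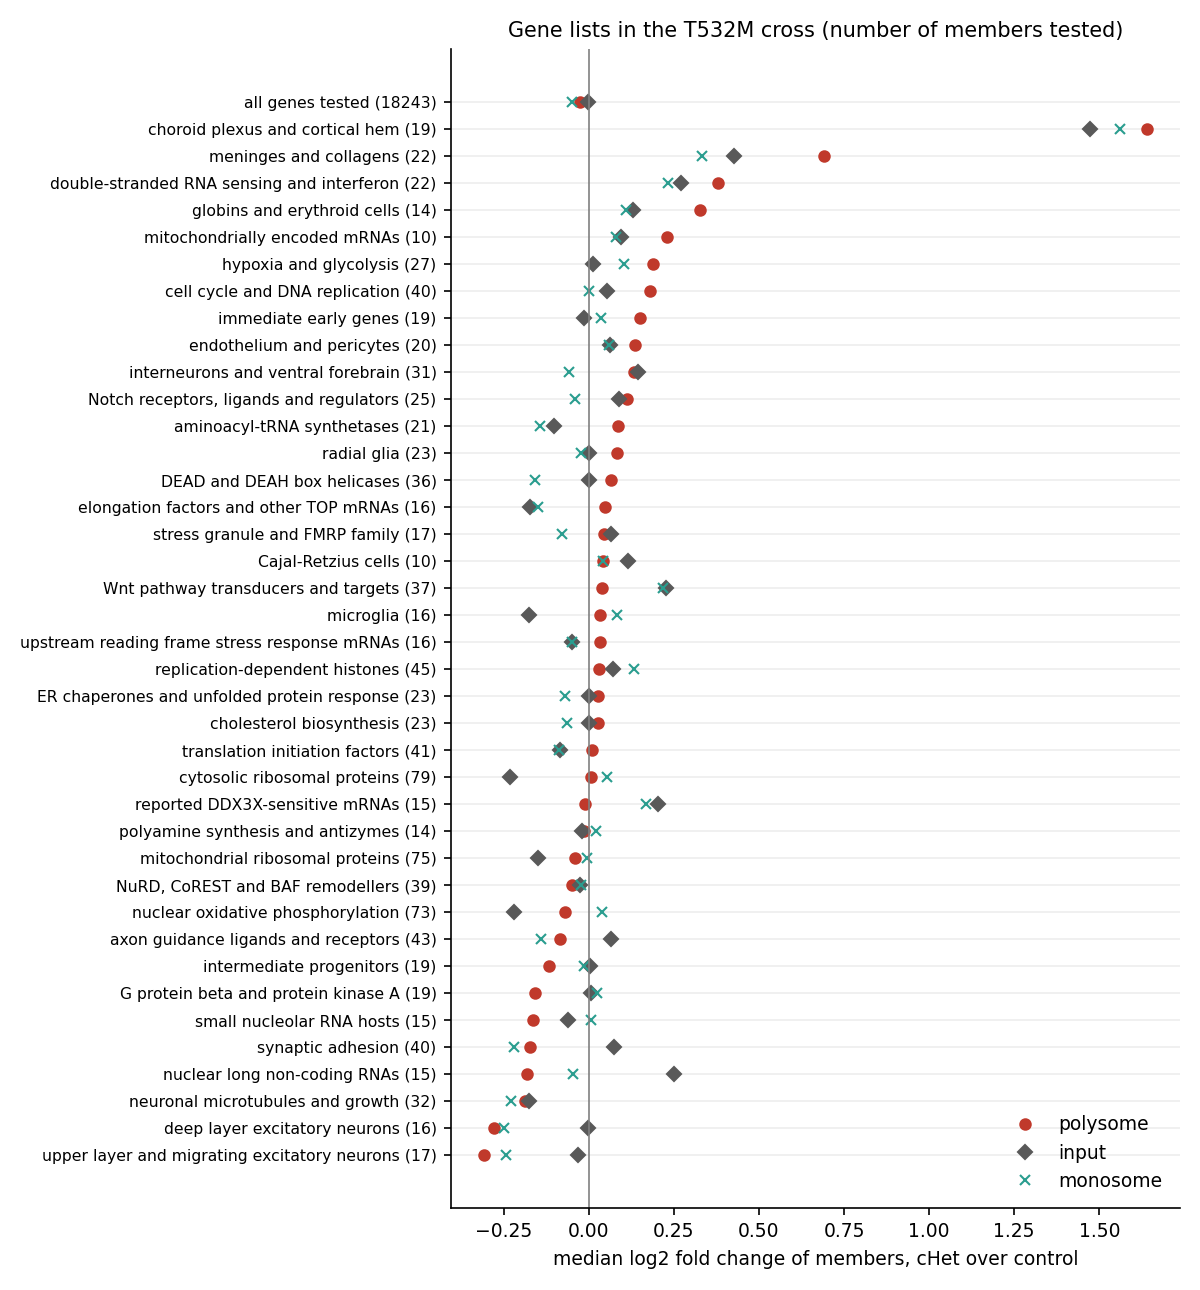
Median log2 fold change, cHet over control, of the members of each of 39 gene lists and of all genes tested, in polysome (circles), input (diamonds) and monosome (crosses) of the T532M cross, with the number of members tested in brackets. Neuronal layer lists sit lowest in the polysome (-0.31 and -0.28) with input near 0, ribosomal proteins are near 0 in the polysome and lower in input (-0.23), and choroid plexus and hem genes lie far right in all 3 fractions.

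The question of whether the polysome differences went beyond those of the lysate was addressed by the change of polysome over input. Of 18243 genes, 0 passed (0% called, edgeR), and DESeq2 also called 0. Without adjustment, 1113 genes (6.1%) had a p under 0.05. The smallest p values belonged to predicted genes and a zinc finger gene. Gm49760 in input was at 0.437, 0.286 and 0.536 CPM in the cHet pools, against 0.0798, 0.0853 and 0.0607 CPM in the controls, with every cHet pool above every control. In the polysome it was at 4.79, 5.63 and 4.81 CPM in the cHet pools, against 4.88, 4.85 and 3.75 CPM in the controls, and the change was -2.27 (SE 0.374, adjusted p = 0.19, edgeR). Its control input levels rest on only a few reads a library, so the size of that change is uncertain. Zfp677, a zinc finger gene, had input values of 0.159, 0.245 and 0.153 CPM in the cHet pools, against 0, 0.0213 and 0.081 CPM in the controls, too few reads for a fold (adjusted p = 0.793, edgeR). Gm28424 averaged 0.178 ± 0.0238 CPM in cHet polysomes and 0.0112 ± 0.0193 CPM in control polysomes (SD, n = 3 each), also too low for a fold (adjusted p = 0.793, edgeR).

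The change of polysome over monosome passed for 11 of 18243 genes (0.0603% called, with 1249 genes, 6.85%, at an unadjusted p under 0.05), all of them lower in the polysome relative to the monosome in cHet. With the pool as a block, which pairs the fractions of a pool, 22 genes passed (1 higher, 21 lower), and DESeq2 called 83 (0.264%). All 11 genes shared an adjusted p of 0.0486 (edgeR), just under the threshold, and their number changed with the libraries used. Leaving out any 1 library other than cHet polysome 3 left 0 genes. Leaving out that one left 14, and leaving out pool cHet 1 left 0. The levels show where these changes lie. In the monosome Dvl3, a transducer of Wnt signals, was at 227, 205 and 267 CPM in the cHet pools, against 106, 116 and 121 CPM in the controls, with every cHet pool above every control. In the polysome Dvl3 was at 118, 120.5 and 136 CPM in the cHet pools, against 128, 123 and 125 CPM in the controls, with overlapping groups (change of polysome over monosome -1.03, SE 0.162, adjusted p = 0.0486, edgeR).

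Levels of other genes of this set follow. In the monosome Rcor2, a CoREST corepressor, was at 239, 245 and 325 CPM in the cHet pools, against 113, 131 and 134 CPM in the controls. Its polysome level was 199, 231 and 274 CPM in the cHet pools, against 258, 240.4 and 260.1 CPM in the controls (change -1.21, SE 0.215). Mta1, a NuRD subunit, had a change of -0.92 (SE 0.159), and Gnb1, a G protein beta subunit, -0.90 (SE 0.156). Prkaca, the catalytic subunit of protein kinase A, had monosome values of 151, 145 and 143 CPM in the cHet pools, against 99.01, 105 and 101 CPM in the controls. Its polysome values were 65.4, 59.97 and 68.7 CPM in the cHet pools, against 74.9, 73.2 and 74.4 CPM in the controls (change -0.72, SE 0.121), so its groups were apart in both fractions, in opposite directions. The rest were Nck2, Ankrd13a, Klhdc2, Slc49a4, Zbtb12 and Gm12999. Gm12999 had 0 reads in all 3 cHet polysome libraries, which allows up to 0.0332 CPM over the group, and 0.0877, 0.134 and 0.176 CPM in the controls.

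The difference between the T532M and the LoF effect in polysomes was tested directly in a fit of all 36 libraries. Of 19121 genes, 0 passed (0% called, edgeR), and 1068 (5.59%) had an unadjusted p under 0.05. DESeq2 called 4 genes (0.012% of those it tested), Ak4, Saxo2, Ucp2 and Krt18. For Ddx3x, the LoF polysome was at 2218, 1697 and 1771 CPM in the cHet pools, against 2481, 2061 and 2569 CPM in the controls, with overlapping groups. The T532M effect minus the LoF effect for Ddx3x was 1.11 (SE 0.372, unadjusted p = 0.00569, adjusted p = 0.663, edgeR). For Ucp2 it was 1.07 (SE 0.22, adjusted p = 0.209, edgeR). Saxo2, a protein of ciliary microtubules, gave 2.90 (SE 0.516, adjusted p = 0.0744, edgeR), at T532M polysome means of 0.417 ± 0.239 CPM in cHet and 0.15 ± 0.0525 CPM in control (SD, n = 3 each). Neu1, the lysosomal sialidase, gave -0.85 (SE 0.164, adjusted p = 0.139, edgeR), with T532M polysome levels of 4.57, 4.49 and 4.63 CPM in the cHet pools, against 6.14, 5.25 and 6.24 CPM in the controls. For Saxo2 and Neu1 the LoF effect, whose levels are not given here, is also part of the value, so it is not the T532M effect alone. The controls of the crosses differ in genotype, with Cre in those of T532M and none in those of LoF, and this cannot be told apart from the allele.

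The authors' deposited table for the T532M cross held 13841 genes, and its polysome column gives the change relative to input. Its values differed by a median of 0.0528 (log2) from the change of polysome over input computed here, and by 0.158 from the comparison within the polysome, over 11283 genes. The polysome column of the authors' deposited table held 849 genes with an unadjusted p under 0.05, and Ddx3x stood there at -0.12 with an adjusted p of 0.9965. Coro2a stood at -0.48 and Nr4a3 at -0.47 in the same column of the authors' deposited table, with adjusted p values of 0.6995 and 0.7063.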

How the data were processed

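RNA of cortex pools was sequenced from input, monosome and polysome gradient fractions (15 to 50% sucrose, 12 fractions, per the labels' protocols); the labels do not give which were joined as polysome. The authors deposited raw counts for 55487 genes. Per the file headers, read pairs were assigned by featureCounts 2.0.3 to gene spans with their introns, with strand setting 2, on GENCODE M25 (GRCm38). The submitters' processing notes name STAR 2.7.11a and Subread 2.0.3, with FastQC 0.11.7 and DESeq2 1.34.0 also listed. The authors' deposited table gives log2 fold changes with p-values and adjusted p-values, used only where named; its normalized signal, the authors' deposited counts after scaling, was used only to check columns.

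Tests used edgeR 4.0.16 in R 4.3.3 (quasi-likelihood, TMM, filterByExpr, Benjamini-Hochberg adjustment, threshold 0.05) on the 18 T532M libraries with 6 group terms, and on all 36 for T532M minus LoF. The fit assumes independent libraries. Pool numbers pair the fractions: deviations from group means correlated at 0.247 to 0.627 between polysome and input and at 0.11 to 0.62 between polysome and monosome. Named genes were Ddx3x, the 12 of smallest p in each direction with a mean of at least 2 CPM and an assigned name, and for each of 39 lists the 2 members of highest level and the one of smallest p, of which not all are reported here; others are marked as picked after their values were seen. The libraries compared and the lists were chosen with earlier results of these data known. Alternatives were other scalings, filters, samples, a block of replicate number or of pool, DESeq2 1.42.0 and limma 3.58.1 (voom). Fits were tested on simulated data. Limits given for counts of 0 are 3 counts and cover counting error only. CPM are not corrected for gene length.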

Additional observations from a re-analysis of the deposited data

How the results depend on the processing

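The polysome comparison gave 0 genes in every fit that left out 1 library, under limma-voom, in the fit of the 6 polysome libraries alone, and without ribosomal RNA and mitochondrial genes. It gave 1 gene, Ucp2, with upper quartile scaling, with DESeq2 size factors and with a minimum of 2 CPM, 2 in the fit of all 36 libraries, 3 with DESeq2 and 58 without the low-count filter (35 higher, 23 lower). Of the 55 of these that were tested with the filter, 32 were higher, 27 of them highest in cHet 1, and 8 higher and 9 lower genes had groups that did not overlap. At an unadjusted p under 0.05 there were 581 higher and 863 lower genes, 1007 and 1516 without control 2, 672 and 1523 without cHet 3, 349 and 576 without control 3, and 512 and 561 without pool cHet 1. The cause was not tested.

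Polysome over input gave 0 to 1 genes when 1 library was left out. Polysome over monosome gave 11 genes, 0 to 14 with 1 library left out, 17 with upper quartile scaling, 0 with DESeq2 size factors, 7 without the filter, 17 with a minimum of 2 CPM, 83 with DESeq2 and 0 without pool cHet 1. T532M minus LoF gave 0 to 2 genes with 1 library left out, 4 with DESeq2 and 51 without the filter.

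With a replicate block, which joins cHet and control libraries of 1 number, the Ddx3x log2 fold change was 0.80 (adjusted p = 0.453, edgeR). The polysome over monosome count of 22 came from a different block, the pool, which joins the fractions of a pool. No other count of calls changed under either block. The labels give cHet and control pools of 1 number nothing else in common. Same-numbered deviations correlated at 0.0743, 0.344 and 0.433 in the polysome, at 0.184, 0.249 and 0.236 in the monosome and at -0.377, 0.137 and -0.128 in input. In polysome and monosome each library correlated best with its own number, a hint from the data and not the design. With 3 pools a group and a median SE of 0.146, small changes are not detectable. Of the list medians recomputed under the alternatives, 621 moved by less than the spread between libraries and 58 by more.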

Other observations

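By gene type, the polysome medians of cHet over control differed in sign. The median log2 fold change was -0.19 over 2244 long non-coding genes, of which 62.9% were lower, and -0.02 over 14354 protein-coding genes, of which 53.8% were lower. At an unadjusted p under 0.05, 8.07% of the long non-coding genes were lower, beside 4.32% of the protein-coding ones. The median over 1318 pseudogenes was 0.10, and pseudogenes can share reads with their parent genes. The median of all genes tested was -0.02, and 0.01 with upper quartile scaling.

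Transcript features of protein-coding genes of at least 2 CPM, taken from the GENCODE M21 transcripts, showed small steps over 5 bins of equal size. From the bin with the shortest coding regions to that with the longest, the polysome medians were -0.07, -0.04, -0.02, -0.01 and 0.02. The monosome medians over the same bins were 0.07, -0.03, -0.07, -0.09 and -0.11. By length of the 5′ UTR, shortest to longest, the medians of the change of polysome over input were 0.03, 0.01, -0.04, -0.06 and -0.10. The polysome medians over the same bins were -0.01, -0.01, -0.02, -0.03 and -0.06. Input medians there rose, at -0.04, -0.01, 0.02, 0.04 and 0.04. In the LoF polysome the medians also fell, at 0.03, 0.02, 0.01, -0.003 and -0.02. By GC content of the 5′ UTR, lowest to highest, the polysome medians were -0.05, -0.02, -0.02, -0.02 and -0.02. The medians of the change of polysome over input were -0.04, 0.02, -0.002, -0.04 and -0.10 over these bins. Input medians were 0.004, -0.04, -0.02, 0.02 and 0.09, so the low value in the last bin came with a higher input and not with a lower polysome. Genes within a bin are not replicates, and no test was made of these steps.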
